A study of Mus musculus with 21 samples.

Results

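*Nr1d1*, *Nr1d2*, *Rora* and *Rorb* encode the nuclear receptors REV-ERBα, REV-ERBβ, RORα and RORβ, and their 4 rows were taken by gene name from a count table of 53801 genes. RNA had been sequenced from IgA+ plasma cells (PCs), the cells of the gut wall that secrete IgA, sorted as CD138+ IgA+ cells from the lamina propria of the small intestine in mice of the C57BL/6 background. The table holds 21 mice with 1 library each: 6 control mice at ZT0 and 6 at ZT12, and 4 knockout mice at ZT0 and 5 at ZT12, where zeitgeber time (ZT) counts hours from lights on. Controls carried floxed *Arntl* without Cre (Mb1Cre-/- x Arntl fl/fl), and knockout mice carried Mb1Cre x Arntl fl/fl, so that floxed *Arntl* was shared by all mice and both groups were littermates. *Arntl* encodes Bmal1, and the Cre sits in *Cd79a* (Mb1), a gene of the B cell lineage, so deletion began in B cell precursors and also cost the knockout mice 1 intact allele of *Cd79a*. The comparisons ask how the levels of these receptors depend on time of day and on genotype. No group carried Cre without floxed *Arntl*, so loss of Bmal1, Cre itself and the lost *Cd79a* allele cannot be told apart.

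REV-ERB and ROR proteins belong to the second loop of the circadian clock. Bmal1 with its partner CLOCK binds E-boxes and activates *Nr1d1* and *Nr1d2*. The REV-ERB proteins, which bind heme and recruit the NCoR corepressor with the histone deacetylase HDAC3, then repress genes that carry ROR response elements (ROREs), *Arntl* among them, while ROR proteins bind the same elements and activate. *Rora* is widely expressed and is known in lymphoid cells from innate lymphocytes and T helper cells, whereas *Rorb* is known mainly from the nervous system and the retina.

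The genes lie apart in the genome (GRCm38). *Nr1d1* spans chr11:98767932-98775333 on the minus strand, *Nr1d2* chr14:18204054-18239127 on the minus strand, *Rora* chr9:68653786-69388246 on the plus strand and *Rorb* chr19:18930605-19111196 on the minus strand, and the counts cover their exons, from 3077 bases in *Nr1d1* to 13071 in *Rora*. The 3′ end of *Nr1d1* overlaps *Thra*, the thyroid hormone receptor gene on the other strand, over 1075 bases, of which 263 are exonic in both genes and make 8.55% of the exon bases of *Nr1d1*. Whether reads were counted by strand is not stated, so reads from that stretch cannot be told apart.

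The promoters that the loop is known to act on are shown for the REV-ERB genes, whose levels fell in knockout mice, and for *Arntl*, which they repress. Each is a RefSeq window of 300 bases on the strand of the gene (GRCm38.p6; 250 bases before the start and 50 after), with capitals at the motif matches found by search of both strands; all 5 symbols looked up, *Rora* and *Rorb* included, matched an entry. The windows are chr11:98775328-98775627 for *Nr1d1*, chr14:18239057-18239356 for *Nr1d2* and chr7:113207261-113207560 for the second of the 2 *Arntl* starts.
Nr1d1: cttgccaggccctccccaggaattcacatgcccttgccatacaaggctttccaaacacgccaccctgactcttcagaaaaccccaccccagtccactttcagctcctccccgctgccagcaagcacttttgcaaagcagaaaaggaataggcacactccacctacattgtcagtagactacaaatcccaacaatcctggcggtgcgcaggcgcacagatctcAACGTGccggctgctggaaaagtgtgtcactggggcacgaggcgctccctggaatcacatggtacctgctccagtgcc
Nr1d2: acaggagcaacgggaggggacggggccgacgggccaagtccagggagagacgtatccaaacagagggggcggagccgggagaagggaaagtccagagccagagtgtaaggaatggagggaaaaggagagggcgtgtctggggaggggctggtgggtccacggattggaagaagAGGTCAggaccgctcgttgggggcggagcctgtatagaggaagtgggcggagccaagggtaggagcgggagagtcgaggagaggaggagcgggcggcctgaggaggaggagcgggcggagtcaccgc
Arntl: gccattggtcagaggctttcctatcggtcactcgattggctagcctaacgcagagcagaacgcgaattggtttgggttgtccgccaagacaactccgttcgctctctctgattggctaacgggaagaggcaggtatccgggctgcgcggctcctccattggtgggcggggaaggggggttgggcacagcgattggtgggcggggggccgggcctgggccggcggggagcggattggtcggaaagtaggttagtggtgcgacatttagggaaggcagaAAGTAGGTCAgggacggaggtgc
The motifs searched were the E-box CACGTG, the E-box variant CACGTT, the RORE ANNTNGGTCA and the RORE core AGGTCA, which were in 7.15%, 4.68%, 2.46% and 16.3% of 32851 RefSeq windows. With the start as position 0, the *Nr1d1* window held the variant E-box, read on the other strand, from position -28. In the *Nr1d2* window 1 RORE core began at position -77. Of the *Arntl* windows 1 of 2, the one shown, held a full RORE from position 27, which includes the core, and the other held none of the 4 motifs. None of the 4 motifs was in the *Rora* window, and of the windows of *Rorb* 1 of 2 held the variant E-box. These matches describe letters in a window and not bound sites.

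Between 14471018 and 22785835 reads per library were counted on genes, of which immunoglobulin genes took 51.5% to 63.6%. *Cd79a*, the Cre locus, separated the genotypes, with at least 385.8 CPM (counts as a rate of the TMM-scaled library size) in every control and at most 276.2 in every knockout mouse. Titles were used to assign genotypes, because 8 of 9 samples titled as knockout list the control genotype in that field. *Arntl* itself ranged in control mice from 6.83 to 8.36 CPM (ZT0) and from 4.00 to 5.56 CPM (ZT12). Its knockout values were 4.51, 4.08, 6.47 and 4.42 CPM (ZT0) and 3.39, 4.93, 3.97, 4.06 and 3.11 CPM (ZT12). The genotypes were apart at ZT0 and overlapped at ZT12, and since the count covers the whole gene, transcripts that lack the floxed part would still be counted. Markers of epithelial cells summed to 55.0 to 121.5 CPM in 15 libraries and to over 140 in 6, namely control ZT0 replicate 6 (202.1), control ZT12 replicates 3 (239.6), 4 (144.7) and 5 (806.6), and knockout ZT12 replicates 2 (181.2) and 5 (498.7). All 8 plasma cell markers were detected.

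Of the 4 genes, 3 passed the filter of at least 10 counts over all mice, which 20256 genes passed. *Nr1d2* had 13175 counts in all, *Rora* 1866 and *Nr1d1* 956, each in all 21 libraries. *Rorb* had 3 counts, 1 in control ZT0 replicate 6 and 2 in control ZT12 replicate 6, and was at 0 in 19 libraries, so it was not tested. Per kilobase of exon, *Nr1d2* was the most abundant in every mouse, with group means of 9.58 ± 0.91 and 11.8 ± 1.5 CPM per kb in control mice at ZT0 and ZT12 and of 2.03 ± 0.40 and 2.02 ± 0.35 in knockout mice (SD, n = 6, 6, 4 and 5). *Nr1d1* was at 0.710 ± 0.214 and 2.04 ± 1.04 CPM per kb in control mice and 0.149 ± 0.064 and 0.480 ± 0.411 in knockout mice, which put its mean second in 3 groups and below that of *Rora* in knockout mice at ZT0. *Rora* was at 0.492 ± 0.116, 0.294 ± 0.235, 0.384 ± 0.155 and 0.424 ± 0.173 CPM per kb in the same order. The ranges of *Nr1d1* and *Rora* per kilobase overlapped in every group but the controls at ZT12, where all 6 values of *Nr1d1* were above all 6 of *Rora*.

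**Figure D1:**
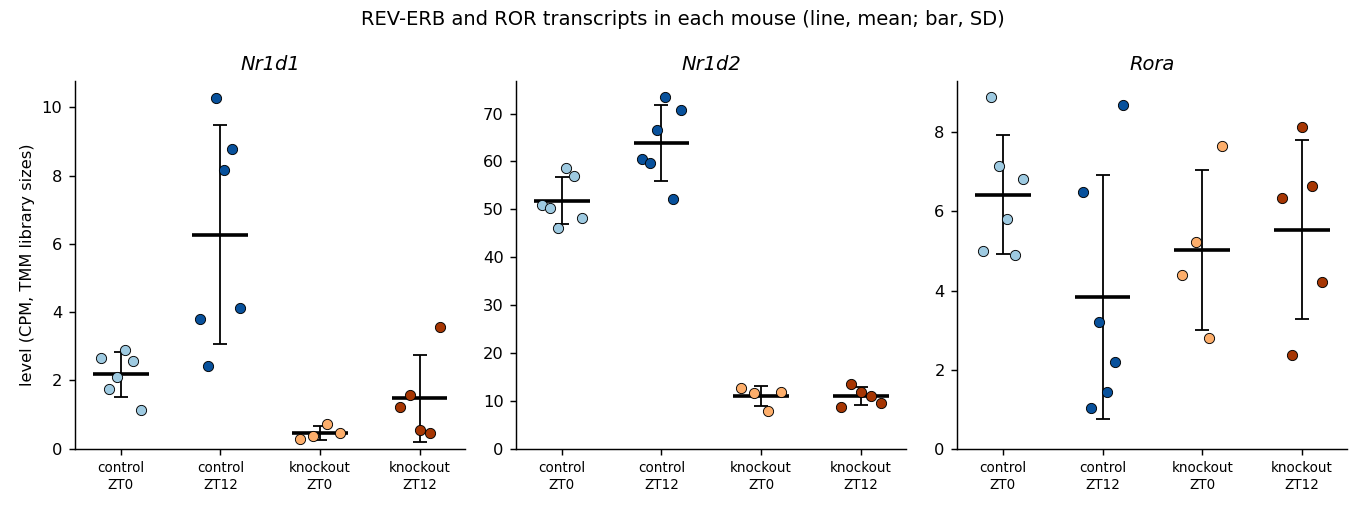
Level of the 3 tested genes in each mouse (y axis, CPM with TMM library sizes, from 0) by group (x axis); points are mice, lines means and bars SD. *Nr1d2* was at 46.1 to 73.5 CPM in control and 7.80 to 13.5 CPM in knockout mice, *Nr1d1* was highest in 3 control mice at ZT12, and *Rora* varied as much within groups as between them.

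*Nr1d2*, which encodes REV-ERBβ, fell in knockout mice at both times and stood first among all genes tested, by the smallest p, in each comparison of the genotypes. In control mice it ranged from 46.1 to 58.6 CPM at ZT0 (median 50.6) and from 52.1 to 73.5 CPM at ZT12 (median 63.6). Knockout mice had 12.6, 11.7, 7.80 and 11.8 CPM (ZT0) and 8.69, 13.5, 11.9, 11.0 and 9.61 CPM (ZT12). The genotypes did not overlap at either time, as in 0.474% of genes at ZT0 and 0.138% at ZT12 with knockout mice lower, and the lowest control was 3.67 times the highest knockout mouse at ZT0 and 3.88 times at ZT12. Over both times, *Nr1d2* was 1 of only 3 genes (0.0148% of those tested), with *Cd79a* and *Zmynd8*, whose 9 knockout values all lay below all 12 control values.

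The mean of *Nr1d2* in knockout mice was 21.2% of the control mean at ZT0 and 17.1% at ZT12. By edgeR's quasi-likelihood test with Benjamini-Hochberg adjustment, the log2 difference was -2.24 (SE 0.14, adjusted p = 8.82e-11) at ZT0 and -2.55 (SE 0.13, adjusted p = 6.06e-13) at ZT12. The test called 0.00987% of genes at ZT0, *Nr1d2* and *Cd79a*, and 0.0148% at ZT12, the same pair and *Ighv1-38*. Averaged over both times the log2 difference of *Nr1d2* was -2.39 (SE 0.10, adjusted p = 1.35e-15), or 5.25-fold. Exact two-sided permutation of the mice gave p = 0.00476 at ZT0 (210 splits), p = 0.00216 at ZT12 (462 splits) and p = 1.03e-05 over both times, each the smallest its design allows (adjusted over 18 tests, 0.0143, 0.00974 and 0.000186). The call held in every alternative tried at each time and over both.

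The difference of *Nr1d2* between ZT0 and ZT12 was small. From these times alone the size of a daily rhythm cannot be read, for this gene or the others. All 6 control mice at ZT12 were above the median of those at ZT0, but the ranges overlapped, and the log2 difference of 0.30 (SE 0.11) did not pass edgeR's quasi-likelihood test (Benjamini-Hochberg adjusted p = 0.165), which called 350 genes (1.73%). The exact permutation test of the same difference gave p = 0.0108 (0.0216 adjusted over 18 tests). With library sizes that are not scaled by TMM the difference in the permutation test was 0.079 (p = 0.554, exact), so this call depended on the scaling. In knockout mice the log2 difference was -0.01 (SE 0.14, 95% interval -0.29 to 0.28), and its difference from that of the controls, the interaction, was -0.31 (SE 0.18, interval -0.68 to 0.06) with a Benjamini-Hochberg adjusted p of 0.513 in edgeR's quasi-likelihood test. The interaction test of edgeR called no gene (0.0%; 2191 genes at an unadjusted p under 0.05; 4 called by DESeq2), so a loss of the time difference in knockout mice was not shown.

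*Nr1d1*, which encodes REV-ERBα and is among the clock genes of widest daily swing in many tissues, was low in every library, at 5 to 167 counts. Control mice ranged from 1.15 to 2.90 CPM at ZT0 (median 2.33) and from 2.43 to 10.3 CPM at ZT12 (median 6.15). Knockout mice were at 0.275, 0.383, 0.734 and 0.447 CPM (ZT0), and at 1.23, 1.58, 0.538, 0.451 and 3.57 CPM at ZT12. At ZT0 the genotypes did not overlap, the share of genes apart in this direction being the 0.474% given above. At ZT12 they did, since knockout replicate 5 exceeded the lowest control. Mice varied more than counting error would make them, with a coefficient of variation of 51.2% against 10.2% from counting in controls at ZT12 and 85.8% against 20.2% in knockout mice at ZT12, but in knockout mice at ZT0 the 42.7% was close to the 35.9% that counting alone gives.

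Over both times *Nr1d1* fell in knockout mice by 2.15 on the log2 scale, or 4.45-fold (SE 0.35, Benjamini-Hochberg adjusted p = 0.01215 by edgeR's quasi-likelihood test), and was 1 of 7 genes called (0.0346%). The difference was of like size at each time, with -2.24 (SE 0.54) at ZT0 and -2.07 (SE 0.45) at ZT12, but neither passed the same test (adjusted p = 0.926 and 0.379), although *Nr1d1* ranked 8 and 7 among all genes by p. Exact permutation tests of *Nr1d1* alone gave p = 0.00476 at ZT0, p = 0.00866 at ZT12 and p = 2.06e-05 over both times (0.0143, 0.0195 and 0.000186 adjusted over 18 tests). The call of edgeR over both times was lost without knockout ZT0 replicate 1, 2 or 4 (adjusted p = 0.0693, 0.0574 and 0.0541) and without the 4 libraries of high immunoglobulin share, above 59% of counts (-2.28, adjusted p = 0.0619), and at ZT12 a call was gained without knockout ZT12 replicate 5, where the log2 difference was -2.71 (adjusted p = 0.00897). The difference was as large without the 6 libraries of high epithelial markers, at -2.38 for ZT0, -2.20 for ZT12 and -2.29 over both times.

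**Figure D2:**
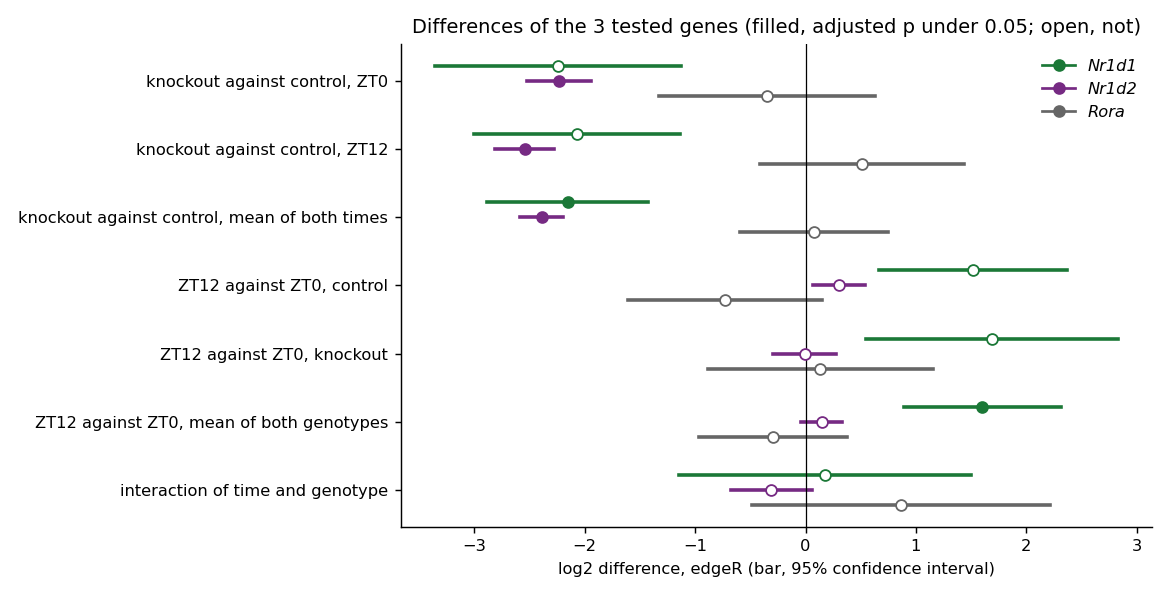
Fitted log2 differences of the 3 tested genes (x axis, edgeR, with 95% confidence intervals) in each comparison (y axis); filled points passed an adjusted p of 0.05. *Nr1d2* lay between -2.55 and -2.24 in the comparisons of genotype, *Nr1d1* between -2.24 and -2.07, and every interval of *Rora* crossed 0.

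By time of day the mean of *Nr1d1* was higher at ZT12 in both genotypes, but the ranges of the times overlapped in both. Knockout ZT12 replicates 3 and 4 (0.538 and 0.451 CPM) lay inside the knockout range at ZT0 (0.275 to 0.734 CPM). In control mice the log2 difference was 1.52 (SE 0.41), with all 6 mice at ZT12 above the median of those at ZT0, yet it did not pass edgeR's quasi-likelihood test (Benjamini-Hochberg adjusted p = 0.0597). DESeq2 gave 1.54 (adjusted p = 0.00694), and the exact permutation test p = 0.00866 (0.0195 adjusted over 18 tests). In knockout mice the log2 difference was 1.69 (SE 0.55), all 5 mice at ZT12 being above the median of those at ZT0 (edgeR, adjusted p = 0.544; 0.0% of genes called, 1622 genes at an unadjusted p under 0.05 and 47 called by DESeq2; exact permutation p = 0.0794, with 126 splits). Averaged over the genotypes it was 1.60 (SE 0.34), which passed edgeR's quasi-likelihood test (adjusted p = 0.0248), as did 0.805% of genes. That call was lost without knockout ZT0 replicate 1, 2 or 4 (adjusted p = 0.0795, 0.0562 and 0.0644), and a call in controls was gained without control ZT12 replicate 1 or 6 or knockout ZT12 replicate 5 (edgeR, adjusted p = 0.0295, 0.0404 and 0.0311). The interaction of *Nr1d1* was 0.17 (SE 0.64) with an interval from -1.15 to 1.50, which holds both a smaller and a larger time difference in knockout mice than in controls.

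The highest *Nr1d1* levels at ZT12 were in libraries of high epithelial markers, whose summed level reached 806.6 CPM in control and 498.7 CPM in knockout mice. The 3 control mice highest in *Nr1d1* at ZT12 (8.17, 8.79 and 10.3 CPM) were the 3 of high epithelial markers, and the 2 highest knockout mice (1.58 and 3.57 CPM) were the 2 of high markers in that group. In knockout mice at ZT12 *Nr1d1* and the markers had the same order, but in controls they did not. The control at 806.6 CPM had less *Nr1d1* than that at 239.6 CPM. Control replicate 2, at 121.5 CPM and so not far below the limit of 140, was the lowest in *Nr1d1* at ZT12 (2.43 CPM). At ZT0 the 1 control of high markers was the lowest in *Nr1d1* (1.15 CPM). Without the 6 libraries the log2 difference between the times was 0.53 in controls (adjusted p = 0.581, edgeR), 0.70 in knockout mice (adjusted p = 0.773) and 0.62 over both genotypes (adjusted p = 0.464). Leaving them out removes the 3 highest controls and the 2 highest knockout mice at ZT12, and the lowest control at ZT0. A smaller time difference was thereby set in advance, so this fit cannot decide whether the difference depends on the markers. With the marker level as a covariate it was 0.88, 1.11 and 0.99 (adjusted p = 0.294, 0.552 and 0.218). All 10 epithelial markers were higher at ZT12 in both genotypes, with a median log2 difference of 2.27 in controls, 2.45 in knockout mice and 2.39 over both, where all 10 had an unadjusted p under 0.05, as did 15.4% of all genes. These differences rest on few libraries. The median summed level at ZT0 and ZT12 was 71.5 and 133.1 CPM in controls, and 75.6 and 81.7 CPM in knockout mice. None of the 10 passed edgeR's adjusted test in any comparison, and none was at 0 in all libraries; *Epcam*, the most abundant in the median library, ranged from 47.8 to 129.9 CPM and *Krt8* from 0.837 to 233.4. The study gates these cells on CD45, a surface protein of blood cells that epithelial cells lack. A gate does not give the purity of a library, and the source of the epithelial marker RNA was not tested. In bulk RNA of sorted cells, more cells of another kind and more RNA per cell cannot be told apart.

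**Figure D3:**
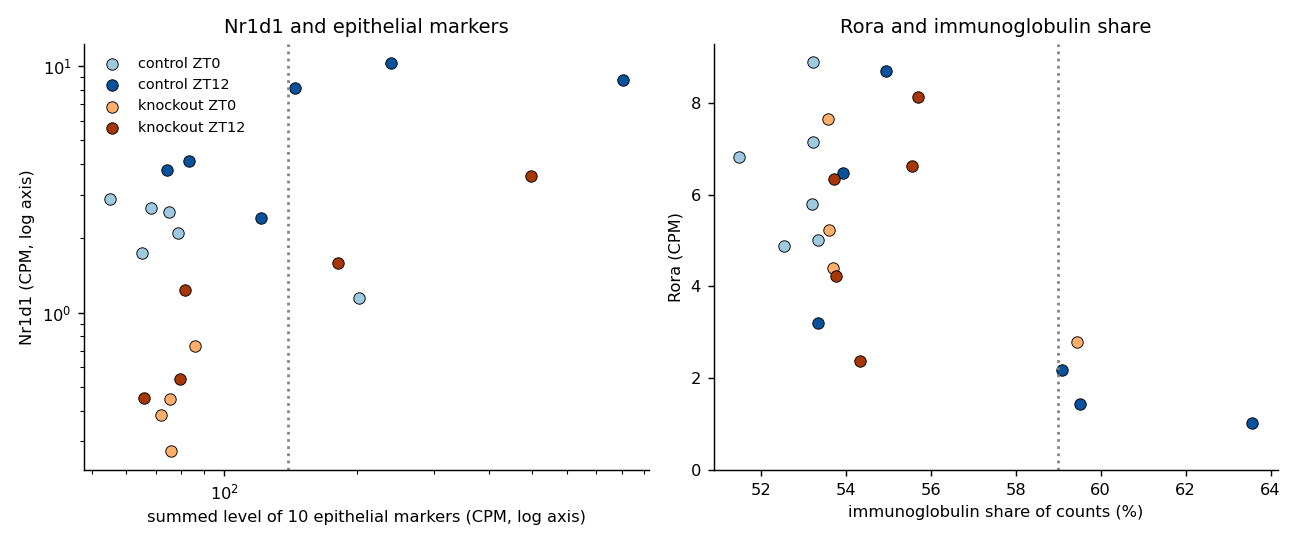
Left, *Nr1d1* (CPM) against the summed level of 10 epithelial markers (CPM), both on log axes, with a line at 140 CPM; right, *Rora* (CPM) against the immunoglobulin share of counts (%), with a line at 59%. Each point is a library, coloured by group: the highest *Nr1d1* value of each group at ZT12 lies right of the left-hand line, and the 4 libraries right of the other line have *Rora* at 1.03 to 2.80 CPM.

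*Rora*, which encodes RORα, the activator that acts on the same elements, passed the test in no comparison. In control mice it ranged from 4.89 to 8.89 CPM at ZT0 (median 6.31) and from 1.03 to 8.69 CPM at ZT12 (median 2.69). Knockout mice had 4.40, 5.23, 2.80 and 7.66 CPM (ZT0) and 6.35, 2.37, 8.14, 6.63 and 4.22 CPM (ZT12). All 4 groups overlapped, and the controls at ZT12 held both the lowest value and the second highest of all mice. The log2 difference between the times was -0.73 in controls (SE 0.42, interval -1.61 to 0.15) and 0.14 in knockout mice (SE 0.49, interval -0.88 to 1.15), and between the genotypes -0.35 at ZT0 (interval -1.33 to 0.63) and 0.51 at ZT12 (interval -0.41 to 1.44). None passed edgeR's quasi-likelihood test, with Benjamini-Hochberg adjusted p from 0.372 to 0.968, and the exact permutation test in controls gave p = 0.0563 (0.101 adjusted over 18 tests). These intervals allow changes of 2-fold or more, so a lack of change was not shown.

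The low *Rora* values moved with the immunoglobulin share. In the 4 libraries where immunoglobulin genes took 59.1% to 63.6% of the counts (control ZT12 replicates 2, 4 and 5 and knockout ZT0 replicate 3) *Rora* was at 1.03 to 2.80 CPM, and in the other 17, with shares of at most 55.7%, at 2.37 to 8.89 CPM (median 6.35). Without those 4 libraries the log2 difference between the times was -0.07 in controls and -0.07 in knockout mice, and the interaction 0.00. With the share as a covariate over all libraries the log2 time difference of *Rora* in controls was -0.0073 in place of -0.73. Summed markers of innate lymphoid cells were also low in those 4 libraries, at 0.122 to 1.40 CPM. Knockout ZT12 replicate 2, with a share of 54.3%, had *Rora* at 2.37 CPM and these markers at 1.16 CPM. Control ZT0 replicate 2, the highest in *Rora* (8.89 CPM), had them at 1.48 CPM. Whether *Rora* came from such cells was not tested.

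Ratios of counts within a library need no scaling between libraries. For *Nr1d2* over *Arntl* the log2 ratio was 2.51 to 2.91 in control mice at ZT0 and 3.66 to 4.13 at ZT12. The *Arntl* count in knockout mice can include transcripts that lack the floxed part. Knockout mice had 1.48, 1.52, 0.27 and 1.41 at ZT0 and 1.35, 1.44, 1.58, 1.43 and 1.62 at ZT12. The control times did not overlap, and every knockout ratio was below every control ratio. How often other pairs of genes are apart in this way was not computed for the ratios to *Arntl*. Fitted singly in controls, *Arntl* fell by 0.78 between the times and *Nr1d2* rose by 0.30, which edgeR did not call. The mean log2 ratio of *Nr1d2* to *Arntl* rose by 1.08 from ZT0 to ZT12 in controls (exact permutation p = 0.00216, adjusted over 18 tests 0.00557) and differed by 0.317 in knockout mice (p = 0.23, exact). Between genotypes it fell by 1.56 at ZT0 and by 2.32 at ZT12 (exact permutation p = 0.00476 and 0.00216, adjusted 0.00952 and 0.00557).

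For *Nr1d1* over *Arntl* the mean log2 ratio in controls was -1.88 ± 0.53 at ZT0 and 0.29 ± 0.92 at ZT12 (SD, n = 6 each), and the ranges did not overlap. Knockout mice had -3.91, -3.31, -3.08 and -3.24 at ZT0 and -1.44, -1.62, -2.81, -3.08 and 0.20 at ZT12. The rise by 2.17 in controls passed the exact permutation test (p = 0.00216, adjusted 0.00557), while the difference of 1.64 in knockout mice did not after adjustment over 18 tests (p = 0.0476, adjusted 0.0659, exact). Without the 6 libraries of high epithelial markers these time differences were 1.19 in controls and 0.942 in knockout mice, and over both genotypes 1.06 in place of 1.90. The mice left out include those highest in *Nr1d1* at ZT12, which by itself makes these differences smaller. Averaged over both times the ratio was lower by 1.77 in knockout mice, a log2 difference of -1.77 (exact permutation p = 0.000206, adjusted 0.00112). Knockout ZT12 replicate 5 reached 0.20, inside the control range at ZT12.

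The ratio of *Nr1d1* to *Nr1d2* compares the REV-ERB genes with each other, and *Nr1d1* was the lower in count in every library. The log2 value in controls was -4.61 ± 0.42 at ZT0 and -3.52 ± 0.83 at ZT12 (SD, n = 6 each), a rise by 1.09 (exact permutation p = 0.0173, adjusted over 18 tests 0.0283). Knockout mice had -5.38, -4.83, -3.35 and -4.64 at ZT0 and -2.79, -3.06, -4.38, -4.51 and -1.42 at ZT12. By genotype the ratio differed by 0.0566 at ZT0, 0.283 at ZT12 and 0.17 over both times (exact permutation p = 0.91, 0.662 and 0.65), so an unequal difference of the REV-ERB genes between genotypes was not detected. Without the 6 libraries of high epithelial markers the rise in controls was 0.231 (p = 0.268, exact permutation). The controls left out include those highest in *Nr1d1* at ZT12, which by itself makes the rise smaller.

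**Figure D4:**
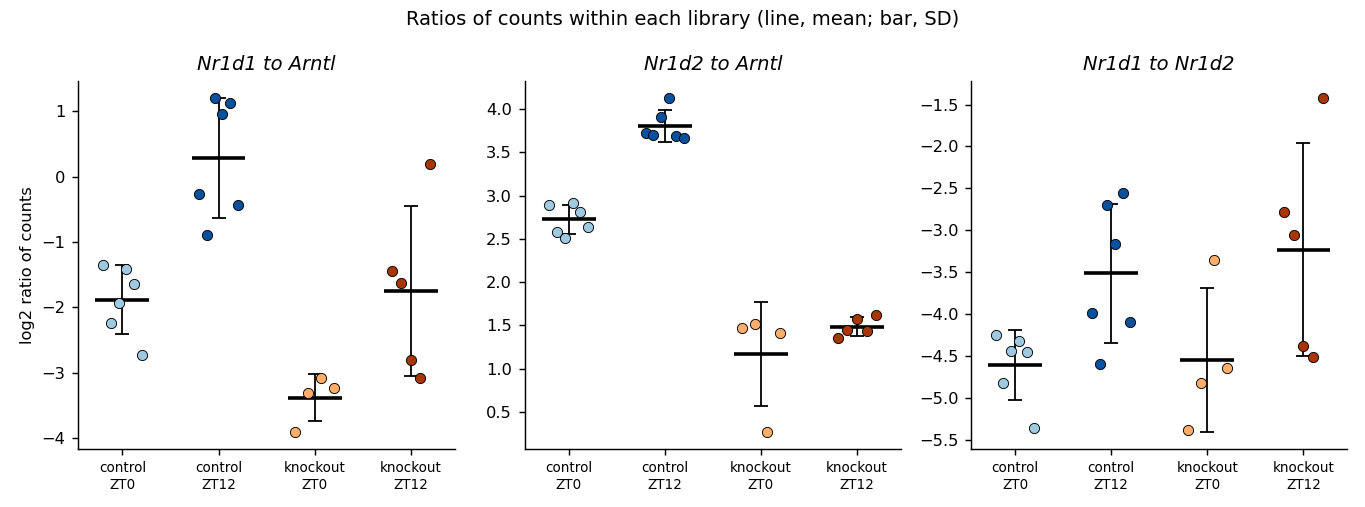
Log2 ratios of counts within each library (y axis) by group (x axis) for *Nr1d1* to *Arntl*, *Nr1d2* to *Arntl* and *Nr1d1* to *Nr1d2*; points are mice, lines means and bars SD. The *Nr1d2* to *Arntl* ratio lay between 2.51 and 4.13 in controls and between 0.27 and 1.62 in knockout mice, and the *Nr1d1* to *Nr1d2* ratio overlapped between genotypes at both times.

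The genes downstream of the receptors were described from 5 genes known to carry ROREs: *Arntl*, *Clock*, *Npas2*, *Cry1* and *Nfil3*, all tested. In the comparison of genotypes over both times 1 of 5 passed the test, against 0.0346% of all genes, and it rose; the median log2 difference was -0.04 against -0.01 over all genes tested. *Arntl*, the deleted gene, was at -0.45 (SE 0.12, interval -0.69 to -0.21), which did not pass (edgeR, adjusted p = 0.844), though its groups at ZT0 did not overlap. The 1 that passed was *Cry1*, a repressor of Bmal1 and CLOCK, at 12.6 to 17.6 CPM in controls at ZT0, 15.2 to 20.8 at ZT12, 20.1 to 27.5 CPM in knockout mice at ZT0 and 21.6 to 33.4 at ZT12. Its groups did not overlap at either time, as in 0.504% and 0.242% of genes with knockout mice higher, and the log2 difference of *Cry1* over both times was 0.57 (SE 0.09, Benjamini-Hochberg adjusted p = 0.00361 by edgeR's quasi-likelihood test). The call of *Cry1* was lost with unscaled library sizes (adjusted p = 0.0613) and without the 6 libraries of high epithelial markers (adjusted p = 0.0911), at differences of 0.60 and 0.54. *Nfil3*, a repressor of D-box genes, differed by 0.03 (SE 0.15) and *Clock* by -0.04 (SE 0.10), and neither passed. By time of day in controls 1 of 5 passed, against 1.73% of all genes: *Arntl*, which fell by 0.78 on the log2 scale (SE 0.15, edgeR adjusted p = 0.0149); without control ZT0 replicate 2 this was 0.0529 at -0.75, and without the 6 libraries of high epithelial markers 0.283 at -0.68. The same call was lost without the 4 libraries of high immunoglobulin share (-0.68, adjusted p = 0.166) and with the immunoglobulin share (-0.85, adjusted p = 0.123) or the epithelial level (-0.72, adjusted p = 0.0683) as a covariate in edgeR, and it did not meet a threshold of 0.01. In knockout mice *Arntl* differed by -0.32 (SE 0.18, adjusted p = 0.655), and the interaction was 0.45 (SE 0.23, adjusted p = 0.476).

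Genes with E-boxes, which like the REV-ERB genes are known targets of Bmal1, were described from 10 genes: *Per1*, *Per2*, *Per3*, *Cry2*, *Dbp*, *Tef*, *Hlf*, *Ciart*, *Bhlhe40* and *Bhlhe41*. Over both times 1 of 10 passed the test between genotypes (0.0346% of all genes did) and it rose in knockout mice, with a median log2 difference of 0.05 against -0.01 over all genes. *Cry2*, the other cryptochrome, was the gene that rose, from 14.8 to 20.8 CPM in the 12 controls to 21.6 to 32.6 CPM in the 9 knockout mice, without overlap (log2 difference 0.48, SE 0.08, edgeR adjusted p = 0.01215), and it was the only gene tested (0.00494%) with all knockout values above all controls. Its call was lost without knockout ZT0 replicate 2 (0.45, adjusted p = 0.0506), at a threshold of 0.01, with unscaled library sizes (0.51, adjusted p = 0.112), with the replicate number as a block (0.48, adjusted p = 0.149) and without the 4 libraries of high immunoglobulin share or the 6 of high epithelial markers (adjusted p = 0.0619 and 0.162). *Per3* differed by -0.43 (SE 0.12), *Per2* by 0.48 (SE 0.18) and *Dbp* by 0.03 (SE 0.20), none past the test. By time, *Tef*, which encodes a D-box activator, rose in controls by 0.71 (SE 0.09, edgeR adjusted p = 4.37e-04) and was the only 1 of the 10 to pass, against 1.73% of all genes; with the immunoglobulin share as a covariate, where edgeR called no gene by time in controls, it was 0.61 (adjusted p = 0.0508). The log2 time difference of *Tef* in knockout mice was -0.06 (SE 0.10), and its interaction of -0.76 (SE 0.14) had the smallest p of the list but did not pass (edgeR, adjusted p = 0.138); it passed by DESeq2 at -0.79 (adjusted p = 0.00114) and in edgeR without control ZT12 replicate 1 at -0.82 (adjusted p = 0.0317).

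Partners of the receptor proteins were described from 4 lists, all of whose genes were tested. None of the 5 corepressor genes (*Ncor1*, *Hdac3*, *Tbl1x*, *Tbl1xr1*, *Gps2*), 7 coactivator genes, 12 genes of heme synthesis and breakdown, or 7 ligase and kinase genes acting on REV-ERB proteins passed edgeR's test in any comparison. Over both times the median log2 difference between genotypes was 0.09 for the corepressors, 0.05 for the coactivators, -0.000887 for heme genes and 0.07 for ligases and kinases, against -0.01 over all genes tested. The corepressor gene of smallest p there was *Tbl1xr1* at 0.18 (SE 0.10), the coactivator gene *Ncoa3* at 0.11 (SE 0.08), the heme gene *Alad* at -0.17 (SE 0.10) and the ligase gene *Mycbp2* at 0.15 (SE 0.11). By time in controls 6 of 7 coactivator genes were lower at ZT12, 5 of them at an unadjusted p under 0.05, as were 18.1% of all genes in either direction, and the median was -0.31. Control ZT12 replicates 2, 4 and 5 had an immunoglobulin share above 59%, and with that share as a covariate edgeR called 0 genes by time in controls. Whether the coactivator genes move with the share was not tested. The genes of smallest p in that comparison were *Tbl1x* at -0.31 (SE 0.10), *Ppargc1a* at 4.32 (SE 1.34), *Hmox1*, which breaks heme down, at 0.78 (SE 0.39) and *Mycbp2* at -0.44 (SE 0.15), with adjusted p from 0.0968 to 0.291 by edgeR. Of 13 other receptors of the thyroid hormone and retinoid type 11 were tested and none passed. *Thra*, which shares its 3′ end with *Nr1d1*, had the smallest p of these between genotypes, with a log2 difference of -1.02 (SE 0.34, adjusted p = 0.926) at ZT0 and -0.33 (SE 0.31, adjusted p = 0.766) at ZT12.

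The genes whose levels were most like those of each receptor over the 21 libraries are given as a description, by Pearson's r of log2(CPM + 0.1) among 11395 genes with a mean of at least 1 CPM outside the immunoglobulin loci. For *Nr1d2* they were *Cd79a* (r = 0.92), *Zmynd8* (0.88) and *Kcnn4* (0.82), and at the other end *Cry2* (-0.74), *Cry1* (-0.71) and *Memo1* (-0.69). These rankings hold the difference between genotypes: within the 12 controls r of *Nr1d2* with *Cd79a* was -0.06. For *Nr1d1* they were *Gins4* (0.82), *Egln3* (0.74) and *Nr1d2* (0.74), against *N4bp2l1* (-0.79), *Crybg3* (-0.74) and *Smap2* (-0.73). Within genotypes r of *Nr1d1* with *Nr1d2* was 0.65 in the 12 controls and -0.34 in the 9 knockout mice. Between *Nr1d1* and *Arntl* r was 0.04 over all libraries, -0.80 in the 12 controls, which span both times, and -0.38 in the 9 knockout mice. For *Rora* they were *Chd7* (0.94), *Furin* (0.93) and *Top2b* (0.93), against *Skp1a* (-0.94), *Ergic3* (-0.93) and *Cox4i1* (-0.93). All points share library depth and composition, which move with the immunoglobulin share.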

How the data were processed

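The authors sequenced poly-A RNA of sort-purified small intestinal IgA+ PCs and deposited raw counts of reads per gene, whole numbers without normalization, beside gene lengths (the deposited column of another unit, bases). The aligner, the counter and the strand setting are not given in the sources used here. The submitters' processing notes name DESeq and DESeq2. The authors' methods state a filter of 10 counts in total, which was kept. Members and gene lists were chosen with earlier results of these data known.

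Groups were taken from the sample titles. Genes that passed the filter were scaled by TMM and fitted with edgeR 4.0.16 (R 4.3.3, robust quasi-likelihood, means of the 4 groups, which share 1 spread), and the Benjamini-Hochberg adjustment covered every gene tested, at a threshold of 0.05. Exact two-sided permutation tests over mice used log2(CPM + 0.1), and log2 ratios of counts with 0.5 added. They were adjusted over 18 tests each. On simulated counts with 200 genes changed 4-fold between genotypes over both times, edgeR recovered 197 (98.5%) with 9 false calls among 206 (4.37%), and DESeq2 1.42.0 200 with 17 false calls among 217 (7.83%), over 19749 genes. The changed genes were drawn above a minimum mean count, with the spread that genes of their level have by trend. Simulated libraries were independent and did not deviate together. The rates need not hold for genes that are lower or vary more. Annotation was GENCODE M21 (GRCm38), since 52142 of 53706 matched genes have the same start and end. Libraries within groups differed beyond sampling noise in all 46 pairs, so none was counted as a repeat. The labels do not say that libraries come from separate mice beyond their numbering, which is taken from the study; otherwise p-values measure only the spread between these samples. Alternatives were DESeq2, other scalings and filters, a threshold of 0.01, a fit of only the groups compared, a replicate block, other pseudocounts and each library left out. Those chosen after seeing the data were the epithelial marker level as a covariate, the set of table columns as a block, and leaving out the 4 libraries of high immunoglobulin share or the 6 of high epithelial markers.

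Named genes were the members, *Arntl*, *Cd79a*, *Thra*, the genes of the lists that were called or had the smallest p, and the 3 genes at each end of the correlation with a member. Some genes of the lists and of the correlations are not reported here, and the counts and medians of their lists were computed without them. The 6 libraries of high epithelial markers, *Zmynd8*, *Epcam* and *Krt8*, and other list members given as examples, were singled out after their values were seen. At these depths 1 count is a large part of the lowest *Nr1d1* values, since 5 counts in knockout ZT0 replicate 1 give 95% Wilson limits of 0.126 and 0.691 CPM of all counts. A count of 0 allows up to 3 counts in a library. Such limits cover counting error only, as reads carry no molecular identifiers.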

Additional observations from a re-analysis of the deposited data

Results flagged for a closer look

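The log2 ratio of *Nr1d2* to *Arntl* in knockout ZT0 replicate 3 was 0.269, far from the other 3 mice of its group, which lay at 1.41 or above. The gap to the nearest was 0.913 of the range of the group, over the limit of 0.829 for 4 mice. In that library *Arntl* was the highest of the group (6.47 CPM) and *Nr1d2* the lowest (7.80 CPM), and immunoglobulin genes took 59.4% of the counts; the part of that share was not tested. In all, 24 groups of values were looked at, and chance alone sets 1 value apart in about 20.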

How the results depend on the processing

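Of 803 values under 18 alternative settings 703 were rated the same as the main value. For tests this meant the same direction and side of the threshold, and for counts of genes called a count near the main one. In 15 too few mice were left for a test, and these were compared by value against the spread between mice. The fall of *Nr1d2* in knockout mice kept its call in every fit, at log2 differences of -2.27 to -2.10 at ZT0, -2.61 to -2.43 at ZT12 and -2.43 to -2.35 over both times. The count of members called over both times between genotypes went from 2 to 1 at a threshold of 0.01 and without the 4 libraries of high immunoglobulin share, and ranged from 1 to 2 with single libraries left out. At ZT12 it went from 1 to 2 by DESeq2 and with the epithelial covariate (1 to 2 with single libraries left out), and at ZT0 from 1 to 2 without the 6 libraries of high epithelial markers. Between times it went from 0 to 1 in controls by DESeq2 and filterByExpr (0 to 1 with single libraries left out), and over both genotypes from 1 to 0 at a threshold of 0.01, without the 6 libraries and with the epithelial covariate (0 to 1). All genes called by time in controls were 350, and 0 with the immunoglobulin share as a covariate, 9 without the 6 libraries, 12 without the 4, 1052 by DESeq2, and 31 to 944 with single libraries left out, lowest without control ZT0 replicate 2 and highest without control ZT12 replicate 1.

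Without the 6 libraries of high epithelial markers the permuted time difference of *Nr1d1* was 0.498 in controls and 0.516 over both genotypes, that of *Nr1d2* 0.278 in controls and -0.0474 in knockout mice, and that of the *Nr1d1* to *Nr1d2* ratio 0.231 in controls and 0.444 over both, with a genotype difference of -0.0941 at ZT0. The fitted time difference of *Rora* over both genotypes became 0.124. With the epithelial covariate that of *Nr1d2* in knockout mice was 0.0465. Without the 4 libraries of high immunoglobulin share, fitted and permuted *Rora* differences were -0.0670 and -0.133 by time in knockout mice, -0.148 and -0.145 by genotype at ZT12, and -0.149 and -0.154 over both times. There *Nr1d1* differed by -2.16 by genotype at ZT12 and *Nr1d2* by -0.153 by time in knockout mice. Ratios were then 1.74 (*Nr1d1* to *Arntl*, time, knockout), -1.92 (the same, genotype, ZT12), 1.72 (*Nr1d1* to *Nr1d2*, time, knockout) and -0.343 (the same, genotype, ZT0). With the share as a covariate the *Nr1d1* interaction was -0.0320, and *Rora* differed by 0.0565 between genotypes at ZT0 and 0.0723 by time over both. With unscaled library sizes the permuted time differences were 1.15 for *Nr1d1* in controls and 0.0792 and -0.0212 for *Nr1d2* in control and knockout mice, and with immunoglobulin genes left out of the library size 0.231 and -0.0375 for *Nr1d2*. With 0.1 added to counts the *Nr1d1* to *Nr1d2* ratio differed by -0.00263 between genotypes at ZT0. The causes of these changes were not tested.

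The replicate numbers did not pair the mice: of 28 same-numbered pairs 13 had a correlation of deviations above 0.1 (median -0.00722, other pairs -0.00943). With the replicate number as a block the time difference of *Nr1d2* in knockout mice was 0.0183 and the *Nr1d1* interaction -0.0104, and all genes called by time in controls were 183. The log2 ratios by time in controls, 2.17 and 1.08 to *Arntl* and 1.09 for *Nr1d1* to *Nr1d2*, and over both genotypes 0.760 for *Nr1d2* to *Arntl* and 1.00 for *Nr1d1* to *Nr1d2*, then missed the adjusted threshold, at raw exact p from 0.0137 to 0.0313; the last is the smallest that the 6 control pairs allow, so that the losses in controls do not show a weaker effect.

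The columns of the table run through the 4 groups 3 times, in sets of 7 libraries, and no source says what the sets are. Libraries of different groups deviated together within a set (median correlation 0.239, above 0.1 in 37 of 52 pairs) more than between sets (-0.112, 19 of 112). With the set as a block in edgeR, chosen after seeing the data, no member gained or lost a call, and *Nr1d1* over both times was at -2.20 between genotypes (adjusted p = 0.00579). The time differences in knockout mice became 0.00844 for *Nr1d2* and -0.173 for *Rora*, and all genes called by time were 545 in controls and 329 over both genotypes (163 without the block). The exact permutation tests did not use the sets.

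With single libraries left out, the fitted time difference in knockout mice ranged from -0.139 to 0.0586 for *Nr1d2* and from -0.0597 to 0.402 for *Rora*, the interaction of *Nr1d1* from -0.470 to 0.471, and the genotype difference of *Rora* over both times from -0.0574 to 0.282. Permuted time differences ranged from -0.153 to 0.0788 (*Nr1d2*, knockout), -1.39 to -0.797 (*Rora*, control) and -0.133 to 0.380 (*Rora*, knockout). The ratio of *Nr1d1* to *Arntl* ranged from 1.15 to 1.97 by time in knockout mice and from -2.52 to -1.70 by genotype at ZT12. The first passed the adjusted threshold without knockout ZT0 replicate 2, 3 or 4 or any 1 knockout mouse at ZT12, and the second missed it without control ZT12 replicate 3, 4 or 5 or knockout ZT12 replicate 2, 3 or 4. That of *Nr1d1* to *Nr1d2* ranged from 0.901 to 1.31 by time in controls, 0.864 to 1.72 in knockout mice, and by genotype from -0.343 to 0.334 at ZT0, -0.171 to 0.603 at ZT12 and -0.0571 to 0.330 over both times. The rise in controls missed the threshold without control ZT0 replicate 2, 5 or 6, and that in knockout mice passed it without knockout ZT0 replicate 3, as did the fall of *Rora* in controls without control ZT12 replicate 6. Counting error limits *Nr1d1* in knockout mice at ZT0, at 5 to 11 counts (CV 42.7%, of which counting alone gives 35.9%), but less so in knockout mice at ZT12 (85.8% and 20.2%).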
